A study of Rattus norvegicus with 12 samples.

Results

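Ribosomal protein messages were followed in CC531, a colon carcinoma cell line of the rat, after exposure to butyrate or aspirin. The members were all probe sets (groups of short probes that together report 1 gene) whose single gene symbol in the array annotation was Rpl or Rps followed by a digit, or was Rplp0, Rplp1, Rplp2 or Rpsa, with the S6 kinases left out. The rule found 63 of the 8740 probe sets. They stood for 43 genes, 29 of the large subunit (42 probe sets) and 14 of the small subunit (21 probe sets). No probe set of Rplp1, Rplp2, Rps18, Rps27a or Rpl32 named that gene alone, and 40 further ribosomal protein probe sets carried several symbols and were left out. There were 12 arrays, each of total RNA from 1 sample. Untreated CC531 cells were measured at 2 and 24 h, and cells given 4.5 mM butyrate or 3 mM aspirin at 2, 6, 12, 16 and 24 h, so each treatment and hour had 1 array. CC531 is 1 cell line, and the labels give no clone, culture medium or vehicle for it. The labels do not say whether separate cultures were used. The p-values therefore measure the spread between these 12 arrays alone, which may be technical and for the treatments also holds changes over the hours.

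The ribosome is the particle that makes protein. Its small subunit reads the messenger RNA and its large subunit joins the amino acids, and each subunit is ribosomal RNA held by a set of proteins that are needed in equal numbers. The messages for these proteins are among the most abundant of a growing cell, and most start with a run of pyrimidines (C or T in the gene), the 5′ terminal oligopyrimidine tract, through which growth signals of the mTOR pathway set their translation. Butyrate, which bacteria of the colon release as they ferment fibre, is an inhibitor of histone deacetylases, and aspirin blocks prostaglandin synthesis by cyclooxygenases.

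Values are the deposited intensities, the brightness of a probe set on a linear scale, and changes are on the log2 scale. Of the 63 member probe sets, 61 (42 genes) were bright enough to be tested. The other 2 both stood for the pseudogene Rps2-ps1, with values between -131.6 and 44.0. Ribosomal proteins have many processed pseudogenes, the symbols come from the array annotation, and the probes themselves were not used here, so signal from a gene and from a near copy of it cannot be told apart. On the arrays, 11 of 12 epithelial marker probe sets (Epcam, Krt8, Krt18 and others) were above the floor (an intensity of 90.91) on every array, while all 4 endothelial ones and 11 of 12 hepatocyte ones were at the floor on at least 1 array. Fibroblast and smooth muscle markers were above it on every array for 5 of 17 probe sets, and blood and immune markers for 2 of 8. The summed epithelial markers were 92737 to 115480 without treatment, 79482 to 98901 with butyrate and 95064 to 110340 with aspirin. The summed blood and immune markers were 4207.3 to 6161.3 without treatment, 1813.9 to 3271.5 with butyrate and 3567.1 to 10425 with aspirin, so every butyrate array lay below all others. Most of this sum came from the 2 probe sets of 1 gene, Cd14, with medians over the arrays of 1847.8 and 1600.8. The medians of the others were at most 249.85. The summed markers of fibroblasts and smooth muscle were 5911.3 to 6629.7, 5415.5 to 7515.5 and 2943.5 to 5726.2, lower on every aspirin array than on both untreated ones. Here 1 probe set of Acta2 had a median of 2824.4, and the medians of the others were at most 567.4. The sums of endothelium were 251.7 to 360.6, 131.2 to 258.0 and 134.7 to 301.2, and those of hepatocytes 830.2 to 992.8, 815.3 to 954.3 and 662.5 to 1103.1. The part of these markers in the results below was not tested.

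The sequence around the start site bears on how members could be controlled together, so it was read for the 37 member genes found in the RefSeq promoter table (rat build GRCr8). A run of at least 5 pyrimidines beginning at the start given in that table was present in 17 of 37 (45.9%), against 4.75% of the 33469 genes of the table. A run of at least 6 within 20 bases of the start was present in 31 (83.8%), against 36.3% of all. Shown are 6 windows of 30 bases, with 15 bases on either side of the given start and the longest pyrimidine run in capitals. In Rpl31 the run begins at the start, and in Rpl19 and Rps23 it spans the start. Rpl13a, the member lowest with butyrate against aspirin, has it just before the given start. Rpl6, with the smallest adjusted p of that comparison, and Rpl26, brighter on 1 of its probe sets in every treated sample than in either untreated one, have no run of 6 or more.
Rpl31: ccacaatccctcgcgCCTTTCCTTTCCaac
Rpl19: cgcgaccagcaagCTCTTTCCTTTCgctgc
Rps23: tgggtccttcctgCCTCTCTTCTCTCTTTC
Rpl13a: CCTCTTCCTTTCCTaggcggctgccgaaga
Rpl6: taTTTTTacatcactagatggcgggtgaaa
Rpl26: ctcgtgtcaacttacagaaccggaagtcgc
In GRCr8 these are, in the same order, chr9:49143096-49143125 and chr10:83519049-83519078 on the plus strand, chr2:23814502-23814531 on the plus strand, chr1:104748899-104748928 and chr12:41011676-41011705 on the minus strand, and chr10:54109677-54109706 on the plus strand. Over the whole 300 bases of a promoter window (both strands searched), CCGGAAG, the core of ETS family sites, was found in 9 of 37 members (24.3%, against 8.75% of all), and AAGATGGC, the core of YY1 sites, in 4 (10.8% against 3.17%). GGGCGG, the GC box of Sp1, was found in 24 (64.9% against 33.1%), CACGTG, the E-box of Myc, in 2 (5.41% against 6.42%) and TATAAA in 4 (10.8% against 14.2%). None of these motifs contains another, and the start given in the table may not be the one used in these cells.

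Ribosomal protein probe sets sat at the bright end of every array. A gap in the levels, seen only after the values were known, set 52 bright probe sets (36 genes, values from 4545.5 to 40756) apart from 9 dim ones (7 genes, values from 16.5 to 1503). The 63 members held 7.81% of the summed signal on the butyrate 12 h array and 10.35% on the aspirin 2 h array, the lowest and highest of the 12. The median member lay below the mean of the 2 untreated arrays on all 5 butyrate arrays, with log2 differences of -0.12 (2 h), -0.20 (6 h), -0.27 (12 h), -0.15 (16 h) and -0.14 (24 h). It lay above that mean with aspirin at 2 h (0.27), 6 h (0.06), 16 h (0.0042) and 24 h (0.12), and below it at 12 h (-0.14). The 2 untreated arrays themselves lay at -0.03 and 0.03. Beside them, the 99th percentile of the probe sets that are not ribosomal was 19200 and 19580 untreated, 15850 to 17260 with butyrate and 17720 to 20720 with aspirin. Relative to the untreated mean it was lower on each butyrate array, with log2 differences of -0.29 to -0.17. On the aspirin arrays its differences were 0.10 (2 h), -0.0070 (6 h), -0.13 (12 h), -0.01 (16 h) and 0.05 (24 h). At 6 and 16 h their sign was opposite to that of the members. Both values there lay between those of the 2 untreated arrays (-0.014 and 0.014), so their sign says little. The arrays were scaled to a common mean, so the values are shares of each array's signal. A fall of the members cannot be told apart from a rise of other messages. The number of cells and the RNA per cell cannot be read from these values.

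**Figure D1:**
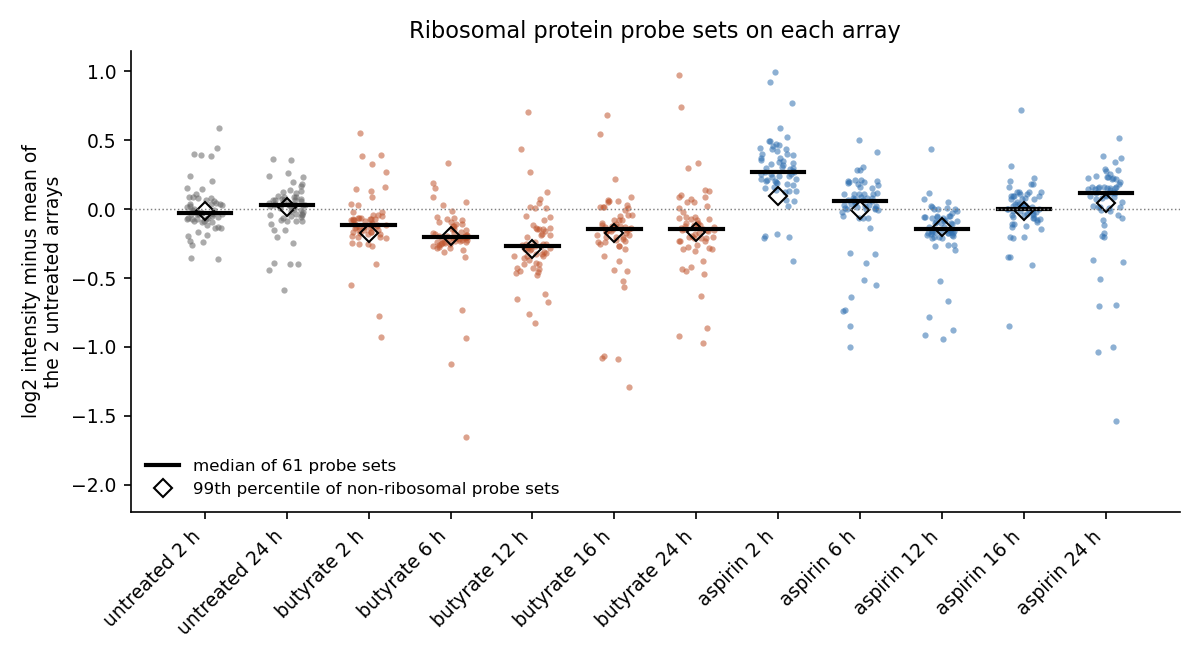
Log2 intensity of the 61 tested ribosomal protein probe sets minus their mean on the 2 untreated arrays (vertical axis), on each of the 12 arrays (horizontal axis). Each dot is 1 probe set, the bar is the median and the diamond is the same difference for the 99th percentile of non-ribosomal probe sets: the bars lie below 0 on all 5 butyrate arrays (-0.27 to -0.12), and the highest bar is that of aspirin at 2 h (0.27).

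With butyrate, most ribosomal protein probe sets were slightly dimmer than in untreated cells, and 1 rose. Of 61, 55 had a negative change, with a median of -0.18 against 0.00 over all 6118 probe sets tested. Past the test, limma with Benjamini-Hochberg adjustment over all probe sets, 0 members fell and 1 rose (Rps4x-ps9), where 11.7% of all probe sets were called, 3.92% lower and 7.78% higher. At an unadjusted p under 0.05, 7 members were lower (12.4% of all) and 1 higher (16.4% of all). Every butyrate array lay below both untreated arrays on 30 members (49.2%, against 13.2% of all probe sets) and above both on 2 (3.28% against 14.7%), Rps4x-ps9 and 1 of the probe sets of Rpl26. The large and small subunit members had medians of -0.17 and -0.18. The median standard error of the members was 0.136. The size depended on the scaling: the median was 0.01 after quantile normalization and 0.02 after scaling to the 99th percentile of non-ribosomal probe sets. With these scalings 4 and 2 members were called, and the share of all probe sets called is not given here.

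The single rise was that of Rps4x-ps9, named as a pseudogene of Rps4x, whose protein belongs to the small subunit. Its intensities were 12079 and 10671 untreated, 16624, 14331, 15381, 18228 and 19010 with butyrate and 17091, 16098, 15356, 12876 and 13838 with aspirin, in the order of the hours. All 5 butyrate and all 5 aspirin arrays lay above both untreated ones, and the butyrate values at 16 and 24 h were the highest of the 12. The change with butyrate was 0.55 ± 0.14 (SE, 5 against 2 arrays, limma adjusted p = 0.0279), and that with aspirin 0.40 ± 0.14 (adjusted p = 0.396). The call was lost, with changes of 0.46 to 0.64 and adjusted p of 0.0569 to 0.156, without the untreated 2 h, untreated 24 h, butyrate 16 h or butyrate 24 h array. It was also lost after median centring (0.41, adjusted p = 0.263), with the hour as a replicate block (0.62, adjusted p = 0.0628), with no filter (adjusted p = 0.0514) and with no variance trend (adjusted p = 0.0738). It was kept after quantile normalization (0.73, adjusted p = 0.00593) and 99th percentile scaling (0.75, adjusted p = 0.00366).

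Rpl26, a large subunit protein also known for binding the p53 message, was read by 2 probe sets. On one its intensities were 25172 and 25010 untreated, 27759, 26055, 26473, 29142 and 30909 with butyrate and 27431, 28711, 25262, 27122 and 29414 with aspirin. Every treated array lay above both untreated arrays, by little. The change with butyrate was 0.16 ± 0.10 (limma adjusted p = 0.327). Relative to the other bright probe sets it was larger: the change was 0.35 (adjusted p = 0.0225) after quantile normalization and 0.36 (adjusted p = 0.0123) after 99th percentile scaling. The other probe set of Rpl26 changed by -0.06 ± 0.11 (adjusted p = 0.761), with 3 of 5 butyrate arrays below both untreated arrays.

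Among the members with the smallest p on the lower side, none was called in the comparison of butyrate with untreated cells. Rpl17, which lies at the exit tunnel of the large subunit, had intensities of 698.4 and 498.0 untreated, 310.7, 270.5, 369.4, 240.6 and 312.0 with butyrate and 519.8, 378.7, 343.2, 533.9 and 286.8 with aspirin. Its butyrate arrays all lay below both untreated ones, while 2 of the aspirin arrays lay between them. The change was -0.99 ± 0.33 (limma adjusted p = 0.0668), and it passed the test after median centring (-1.13) and quantile normalization (-1.17). Rpl30, another dim probe set of the large subunit, read 1503 and 665.6 untreated and 758.2, 317.8, 589.9, 471.8 and 550.9 with butyrate. The butyrate 2 h array lay between the untreated arrays and the other 4 below both, and the change of -0.95 ± 0.37 (adjusted p = 0.11) was called after quantile normalization (-1.17) and without the untreated 24 h array (-1.54). Rpl6, Rpl31 and Rps27l, bright members of both subunits, changed by -0.34 and -0.28 (the probe sets of Rpl6), -0.24 and -0.29, with adjusted p of 0.0837 to 0.123. The first of these was called without the butyrate 2 h array (-0.38).

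The further members on the higher side were near 0 against their error. Rpl19l4 changed by 0.54 ± 0.42, Rpl3l, the muscle form of Rpl3, by 0.14 ± 0.24, Rpl41, the smallest ribosomal protein, by 0.04 ± 0.24 and Rpl14 by 0.01 ± 0.19, with limma adjusted p of 0.443 to 0.999. Rpl14 read 10983 and 15822 untreated and 14408, 12226, 13595, 13648 and 12538 with butyrate, so that all butyrate arrays lay between the untreated ones. The directions of Rpl14, Rpl3l and Rpl41 turned under median centring (-0.13, -0.0017 and -0.10).

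With aspirin, no ribosomal protein probe set passed the test against untreated cells. Of 61, 0 were called by limma (0.147% of all probe sets were), 1 had an unadjusted p under 0.05 (10.7% of all did), and 45 had a positive change. The median was 0.07 against -0.04 over all probe sets tested. Every aspirin array lay above both untreated arrays on 3 members (4.92%, against 3.81% of all), namely Rps4x-ps9, 1 probe set of Rpl26 and 1 of Rpl27, and below both on 0 (7.78% of all). At 2 h the median member was 0.33 higher with aspirin than on the untreated array of that hour, and at 24 h it was 0.07 higher. The comparisons of both treatments use the same 2 untreated arrays.

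The members with the smallest p for aspirin on the higher side, after Rps4x-ps9, were Rpl21 (0.22 ± 0.13), Rpl35 (0.21 ± 0.13), Rpl36al1 (0.20 ± 0.14) and the probe sets of Rpl26 (0.15 ± 0.11 and 0.13 ± 0.10), with limma adjusted p of 0.59 to 0.689. On the lower side they were the dim probe sets of Rpl21 (-0.72 ± 0.38 and -0.66 ± 0.32), Rpl30 (-0.59 ± 0.37), Rpl17 (-0.56 ± 0.33) and Rpl5 (-0.54 ± 0.38), and a probe set of Rps15 (-0.20 ± 0.21), with adjusted p of 0.49 to 0.796. Thus the dim members had a median of -0.54 and the bright ones of 0.08. The untreated arrays lay far apart for the dim members, with medians of 0.39 (2 h) and -0.39 (24 h) relative to their mean. The aspirin medians of 2 h (-0.18) and 16 h (-0.21) lay between these, and those of 6 h (-0.64), 12 h (-0.67) and 24 h (-0.51) below both. On Rpl21 the probe sets went opposite ways, and a gene with dim and bright probe sets cannot be given 1 direction here. Bright probe sets of a gene also differed in sign. The other probe sets of Rps15 changed by 0.17 and 0.13, and those of Rpl24 by 0.13 and -0.13. The interval of the change was wide for the dim members, for Rpl5 from -1.35 to 0.27, so a change in either direction was not shown to be absent.

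Butyrate against aspirin, hour by hour, gave the clearest difference. Of 61 ribosomal protein probe sets, 25 (18 genes) were lower with butyrate and 0 higher, where 9.61% of all probe sets were lower and 15.6% higher (25.2% called in all, limma with the hour as a block, adjusted p under 0.05). The median was -0.23 against 0.10 over all probe sets tested, and the called changes ran from -0.61 to -0.21. Butyrate was the lower at all 5 hours on 40 members (65.6%, against 13.0% of all) and the higher on 1, Rpl5 (1.64% against 19.9%). Every butyrate array lay below every aspirin array on 9 members (14.8% against 5.3%): both probe sets of Rpl6 and 1 each of Rpl11, Rpl21, Rpl23, Rpl31, Rpl39, Rps9 and Rps27l. By the hour, the median member difference was -0.41 at 2 h, -0.25 at 6 h, -0.13 at 12 h, -0.14 at 16 h and -0.23 at 24 h. Both subunits took part, with 16 of 42 large and 9 of 19 small subunit probe sets lower and medians of -0.22 and -0.25. The 39 tested ribosomal probe sets of several symbols, which are no members, had 27 lower, 0 higher and a median of -0.26.

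The calls between the drugs changed with the scaling and when single hours were left out. Scaling to the 99th percentile of non-ribosomal probe sets left 3 lower and 3 higher (median -0.03). Quantile normalization left 1 lower and 1 higher (median -0.02, beside -0.02 over all probe sets). Median centring left 50 lower (median -0.54, beside -0.22 over all probe sets). The share of all probe sets called under each scaling is not given here, so these counts alone are not a result about the members. Leaving out 1 hour left 16 (without 2 h), 3 (6 h), 3 (12 h), 2 (16 h) and 4 (24 h) lower, with medians of -0.25 to -0.18. Of all probe sets, 10.4%, 2.5%, 1.8%, 0.948% and 2.99% were then lower, in the same order, against 9.61% with all hours, so the share of all probe sets called also fell when an hour other than 2 h was left out. Without the aspirin 2 h and butyrate 12 h arrays 0 were called (6.72% of all probe sets), with a median of -0.21. With the hour as a block, that comparison rested on 6, 16 and 24 h only, the hours that kept both drugs.

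**Figure D2:**
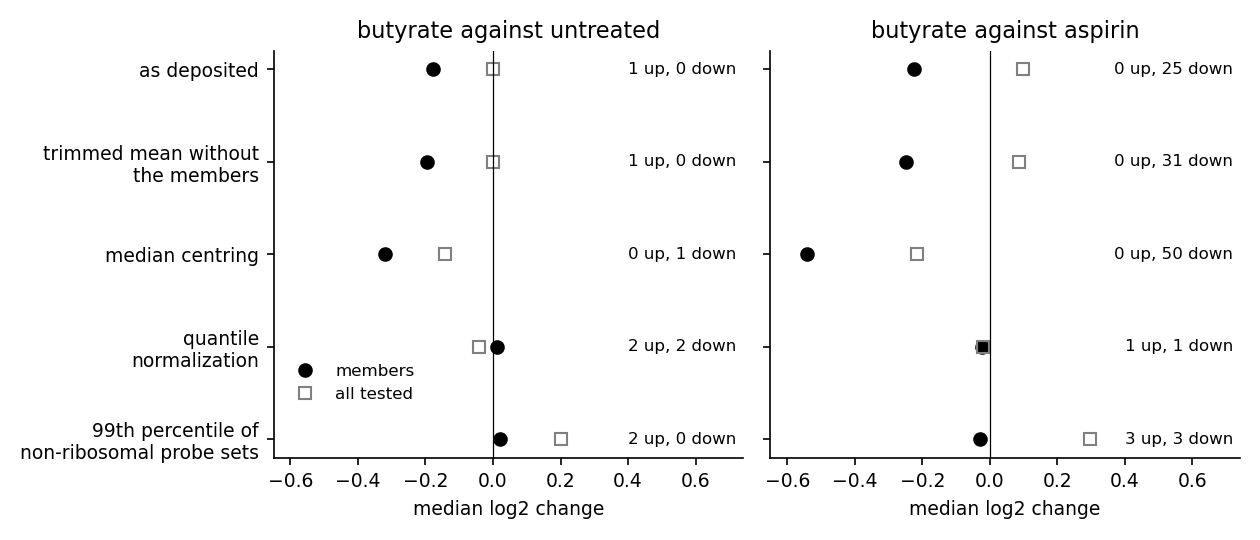
Median log2 change (horizontal axis) of the 61 member probe sets (filled circles) and of all 6118 tested probe sets (open squares) under 5 scalings (vertical axis), with the members called at the right. The member median is -0.18 and -0.23 on the deposited scale and lies between -0.03 and 0.02 in both comparisons after quantile normalization and 99th percentile scaling.

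In the small subunit, Rpsa, which lies on the mRNA exit side and is also known as the laminin receptor precursor, was lower on both probe sets. The first read 24866, 22470, 21987, 23586 and 23349 with butyrate and 32647, 27960, 24180, 25968 and 28936 with aspirin, beside 25130 and 26805 untreated. Butyrate was the lower at each hour and below both untreated arrays throughout. The changes were -0.26 ± 0.06 and -0.30 ± 0.07 (SE, 5 pairs of arrays, limma adjusted p = 0.0299 and 0.0278).

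Rps3, at the entry of the mRNA channel and also a DNA repair enzyme, read 25040, 24408, 22685, 25218 and 24654 with butyrate, 32561, 30804, 24398, 28990 and 30608 with aspirin and 25905 and 29206 untreated on the first of its probe sets. Every butyrate array lay below both untreated arrays, and 3 aspirin arrays lay above them. Its changes between the drugs were -0.27 ± 0.06 and -0.28 ± 0.08 (limma adjusted p = 0.0264 and 0.0425).

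Rps29, a small zinc-binding protein of the head of the small subunit, read 23753, 21731, 16838, 21620 and 22796 with butyrate, 34134, 30546, 22074, 25298 and 29064 with aspirin and 27982 and 24940 untreated. The lowest value of all was that of butyrate at 12 h, and the aspirin 12 h array was also below both untreated ones. The change was -0.40 ± 0.06 (adjusted p = 0.0112), and -0.20 after 99th percentile scaling, still called. On its other probe set the change was -0.19 ± 0.12 (adjusted p = 0.279), with butyrate lower at 3 of 5 hours. Rps6, the protein that S6 kinase phosphorylates, was not called, with -0.14 ± 0.06 and -0.19 ± 0.05 (adjusted p = 0.128 and 0.0532), and both values turned after 99th percentile scaling (0.06 and 0.01). Rps16, Rps23, Rps9 and Rps27l were called lower, with changes of -0.29, -0.25, -0.25 and -0.26. Rps4x-ps9 was not called, with a change of 0.15 ± 0.12 (adjusted p = 0.401) that was 0.35 and called after 99th percentile scaling and -0.16 after median centring.

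In the large subunit the lowest member was Rpl13a, also known for leaving the ribosome to silence messages after interferon. Its first probe set read 12803, 7972, 9625, 10491 and 11068 with butyrate, 19082, 15363, 12661, 15020 and 16814 with aspirin and 12642 and 13904 untreated. Butyrate at 2 h lay between the untreated arrays and the other 4 butyrate arrays below both, while 4 aspirin arrays lay above both. The change was -0.61 ± 0.09 (limma adjusted p = 0.01), and it was called after quantile normalization (-0.44) and 99th percentile scaling (-0.41). The second probe set read 19983, 17426, 17142, 9913 and 17238 with butyrate and 29234, 21131, 19659, 21491 and 22982 with aspirin, with 1 butyrate array, that of 16 h, far below the rest. Its change was -0.51 ± 0.14 (adjusted p = 0.0439), and -0.36 and not called without the 16 h arrays.

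Rpl6, a large subunit protein, read 25559, 22858, 20709, 20811 and 22990 with butyrate, 33855, 28633, 27512, 27537 and 33007 with aspirin and 28644 and 28167 untreated on 1 probe set. The butyrate arrays did not overlap the aspirin or the untreated arrays. It had the smallest adjusted p of the members, with -0.41 ± 0.05 (limma adjusted p = 0.00756), and was -0.22 and called after 99th percentile scaling and -0.18 and not called after quantile normalization. The other probe set of Rpl6 changed by -0.33 ± 0.05 (adjusted p = 0.0113). Without the aspirin 2 h and butyrate 12 h arrays neither was called, at -0.42 and -0.34.

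Rpl21 was lower on 1 of 4 probe sets, with a change of -0.43 ± 0.10 (limma adjusted p = 0.0258). That probe set read 12925, 12369, 13151, 10644 and 13764 with butyrate and 19102, 14502, 15682, 17986 and 17526 with aspirin, without overlap. Its other probe sets changed by -0.19, -0.19 and 0.24, none called.

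Rpl31, which lies beside the exit of the large subunit, read 23787, 22657, 20663, 22946 and 23256 with butyrate, 29260, 26732, 25309, 26321 and 26951 with aspirin and 27106 and 26309 untreated. The butyrate arrays were again below all others. Its change was -0.25 ± 0.05 (limma adjusted p = 0.0187), and its start window above shows an unbroken run of 12 pyrimidines.

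Rpl3, which helps to form the site of peptide bond formation, changed by -0.27 ± 0.06 and -0.21 ± 0.05 (adjusted p = 0.0258 and 0.0352). Rpl11 and Rpl5 bind 5S ribosomal RNA together and, when free of the ribosome, the p53 regulator Mdm2. Rpl11 was lower on both probe sets, with changes of -0.28 ± 0.06 and -0.23 ± 0.05 (limma adjusted p = 0.0202 and 0.0255). Rpl5, on a dim probe set, read 331.8, 220.9, 276.3, 224.2 and 182.3 with butyrate, 309.6, 151.4, 137.9, 140.7 and 177.8 with aspirin and 343.6 and 186.5 untreated. Butyrate was the higher at each hour, by 0.47 ± 0.20 (adjusted p = 0.132), while 4 aspirin arrays lay below both untreated ones. After 99th percentile scaling this change was 0.67 and called. Rplp0, the base of the stalk that recruits elongation factors, changed by -0.32 ± 0.11 (adjusted p = 0.0865) and Rpl22 by -0.21 ± 0.10 (adjusted p = 0.19), neither called.

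Also called lower in the large subunit were Rpl7a (-0.29), Rpl23 (-0.28 and -0.26 on its probe sets), Rpl24 (-0.26 on 1 of 2), Rpl26 (-0.22 on 1 of 2) and Rpl27a (-0.27). On the other probe set of Rpl26, the one above both untreated arrays in every treated sample, the change was 0.02 ± 0.06 (adjusted p = 0.776), and it was called higher after quantile normalization and 99th percentile scaling. No other member had a called change. The 95% interval was wide for the dim probe sets, for Rpl17 from -1.05 to 0.19.

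**Figure D3:**
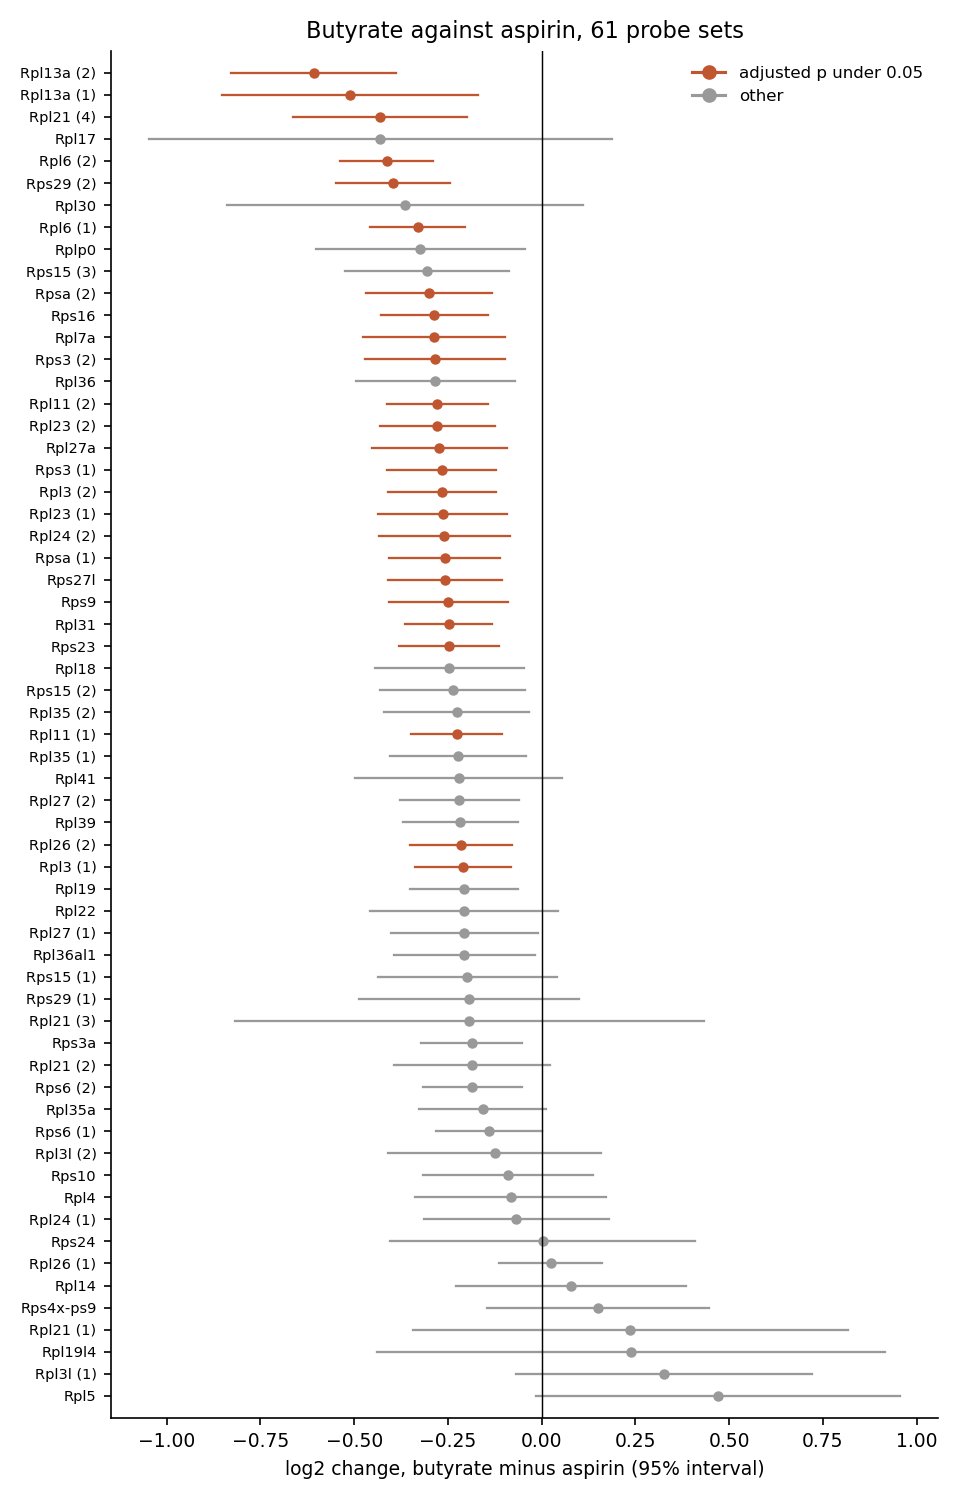
Log2 change of butyrate minus aspirin (horizontal axis, with 95% intervals) for each of the 61 tested probe sets, ordered by change, with numbers in brackets where a gene has several. The 25 probe sets with an adjusted p under 0.05 (coloured) all lie between -0.61 and -0.21, and the uppermost rows are both probe sets of Rpl13a.

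Probe sets of the same gene mostly shared a direction, as did most members whatever their gene. Of 61 members, 55 were negative for butyrate against untreated cells and 53 for butyrate against aspirin. For aspirin against untreated cells 45 were positive. Agreement within a gene beyond this was not tested. Of 16 member genes with several tested probe sets, all had 1 sign in 14 for butyrate against untreated cells, in 12 for aspirin against untreated cells and in 13 for butyrate against aspirin. In the last comparison all probe sets were called for 7 genes: Rpl3, Rpl6, Rpl11, Rpl13a, Rpl23, Rps3 and Rpsa. The signs differed for Rpl21, Rpl26 and Rpl3l, and dim probe sets were involved for Rpl21 and Rpl3l.

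**Figure D4:**
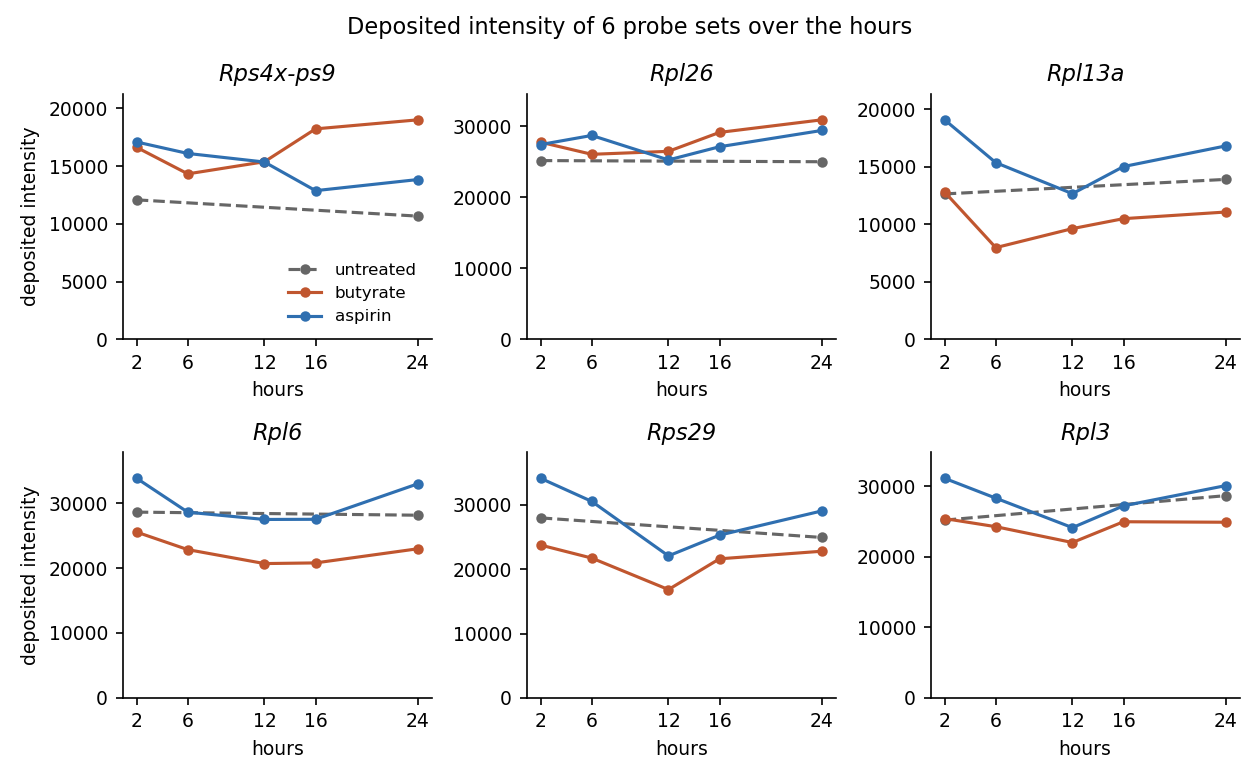
Deposited intensity (vertical axis, from 0) of 1 probe set each of 6 members against hours (horizontal axis), with 1 array per point and lines joining the arrays of a treatment. Rps4x-ps9 lies above the untreated arrays with both drugs, Rpl13a, Rpl6, Rps29 and Rpl3 lie lower with butyrate than with aspirin at all 5 hours, and Rpl26 lies between 25010 and 30909 on all arrays.

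Over the hours, no member had a called slope. Slopes per doubling of the hours had medians of -0.01 with butyrate, -0.07 with aspirin and 0.07 for their difference, with 0 of 61 called by limma in each, where 8.99%, 1.65% and 1.73% of all probe sets were called. At an unadjusted p under 0.05 there were 1, 7 and 2 members (24.1%, 19.7% and 18.2% of all), and all 7 for aspirin had negative slopes (7.89% of all). Of the 61, 59 had a negative slope with aspirin. Rpl14 had the smallest p there, with 15103, 16042, 12283, 10373 and 10091 from 2 to 24 h. The 16 and 24 h values were the lowest, and the slope was -0.19 ± 0.05 (limma adjusted p = 0.0946). A probe set of Rps15, a small subunit protein, read 10677 at 2 h and 6012.1 at 24 h, with a slope of -0.18 ± 0.06 (adjusted p = 0.145). The median slope with aspirin rested on its 2 h array: without it the median was 0.03, and that of the difference -0.04.

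Other genes of translation were counted by lists. Of 16 probe sets (9 genes) for ribosome assembly and ribosomal RNA synthesis, 8 were lower with butyrate than in untreated cells and 0 higher, with a median of -1.39, where 3.92% of all probe sets were lower and the ribosomal proteins had a median of -0.18. The lower ones included Polr1a, the largest subunit of RNA polymerase I (-1.84 ± 0.40, limma adjusted p = 0.0131). Among them were also Dkc1, which makes pseudouridine in ribosomal RNA (-2.03 ± 0.45, adjusted p = 0.0136), and Ncl, or nucleolin (-1.39 ± 0.31, adjusted p = 0.0137). Gnl3, or nucleostemin, was lower too (-1.46 ± 0.40, adjusted p = 0.0324). Gnl3 was called on 2 of 3 probe sets, and the other had a change of -0.39 ± 0.20 (adjusted p = 0.226). Against aspirin 6 of the 16 were lower and 0 higher, with a median of -0.60, where 9.61% of all probe sets were lower and 15.6% higher. The 17 probe sets of the mitochondrial ribosome had 0 called against untreated cells (median -0.24, where 11.7% of all probe sets were called) and 3 lower against aspirin (median -0.43, where 9.61% of all were lower). Of 24 probe sets for initiation factors, 1 was lower against untreated cells (3.92% of all were), and 3 were lower and 5 higher against aspirin (9.61% and 15.6% of all).

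A list of other messages taken to carry an oligopyrimidine start did not move as one. Their start sequences were not read here. Among 16 such probe sets (7 genes), 3 were lower and 0 higher with butyrate than in untreated cells, where 3.92% of all probe sets were lower and 7.78% higher. Against aspirin 7 were lower and 3 higher, where 9.61% and 15.6% of all were. Hnrnpa1, an RNA-binding protein, was lower than with aspirin on all 4 probe sets, with changes of -1.98 to -0.39, and Nap1l1, a histone chaperone, on 2 of 3, with changes of -1.0 and -0.90 (-0.39 on the other, adjusted p = 0.19). Eef2, the factor that moves the ribosome along, was higher than with aspirin on 3 of 4 probe sets, by 1.18 ± 0.18, 1.87 ± 0.20 and 1.90 ± 0.18 (limma adjusted p = 0.011, 0.00567 and 0.00517), and the other had a change of -0.14 ± 0.07 (adjusted p = 0.2). Against untreated cells these 3 probe sets changed by 0.60, 0.61 and 0.69 with butyrate and by -0.58, -1.26 and -1.21 with aspirin, in the same order, none called. Eef1a1, which brings the charged transfer RNA, was lower on 1 of 2 probe sets, with a change of -0.21 ± 0.06 (adjusted p = 0.0412). Its other probe set had a change of 0.84 ± 0.31 (adjusted p = 0.0938). The remaining genes of the list, Naca, Rack1 and Eef1g, changed by -0.20 ± 0.11, -0.13 ± 0.08 and 0.09 ± 0.11 against aspirin, none called. In the S6 kinase and mTOR branch (16 probe sets, 9 genes), 2 were higher than with aspirin and 3 lower (15.6% and 9.61% of all). The median was 0.05, with 9 changes positive and 7 negative. Tsc2, which restrains mTOR, was higher by 1.52 ± 0.18 (limma adjusted p = 0.00647). A probe set of Akt2 was higher by 1.14 ± 0.29 (adjusted p = 0.037), and its other had a change of 0.30 ± 0.25 (adjusted p = 0.416). Eif4ebp1, the repressor of cap-dependent initiation, was lower on all 3 probe sets, with changes of -1.44 to -1.24.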

How the data were processed

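The values came from the deposited table of intensities, 1 column per array (0 left unused), in which some values were negative. Which software, background step and scaling made the table is not given in the sources used here. The trimmed array means (2% cut at each end) lay between 1001.52 and 1002.08, so the deposited intensities were taken as already scaled. After removal of 59 controls, values below a floor of 90.91 were raised to it and log2 was taken. The floor is the absolute value of the 10th percentile, which was negative. Probe sets with a mean log2 under 6.54 (2622) were left out and 6118 tested. limma 3.58.1 in R 4.3.3 (lmFit, eBayes with a variance trend) compared each treatment with the 2 untreated arrays, fitted over all 12, and butyrate with aspirin over the 10 treated arrays with the hour as a block. Slopes were fitted over log2 hours. P-values were adjusted by Benjamini and Hochberg over all tested probe sets, with a threshold of 0.05. The fits were tested on simulated data. Named were, in each comparison, the 6 members with the largest called rise and the 6 with the largest called fall, filled up by the smallest p, and Rplp0, Rpsa, Rps6, Rps3, Rpl3, Rpl5, Rpl11, Rpl13a and Rpl22, of which the text gives the last set for butyrate against aspirin only and, for slopes, 2 members. Other called members were named after their values were seen. The members and lists were chosen with earlier results of these data known. Promoter windows came from RefSeq (GRCr8), and the symbols of 62 of 63 members were found by gene number, with 0 changed. The number of arrays limits the precision.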

Additional observations from a re-analysis of the deposited data

Results flagged for a closer look

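Checked were 74 groups of 5 arrays, each the butyrate or aspirin arrays of a named member or of the median member. In 3 of them 1 array lay far from the other 4, by a gap of over 0.71 of the group's range. This is the 95% critical value of Dixon's test, which chance exceeds in about 1 of 20 groups. All 3 were low butyrate arrays. Rps6 read 16010 at 6 h on 1 probe set, beside 17460 to 17883 at the other hours. Rps29 read 16838 at 12 h, beside 21620 to 23753. Rpl13a read 9913.2 at 16 h on its second probe set, beside 17142 to 19983, while its first probe set was lowest at 6 h. No named member had all butyrate arrays on one side of the untreated arrays and all aspirin arrays on the other.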

How the results depend on the processing

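For both comparisons of butyrate, the number of members called changed with the scaling and when single arrays were left out. Between the drugs, leaving out 1 array also took its hour out of the comparison. Limits are few arrays, 1 per treatment and hour, with members at the bright end of the scale. The cause of each difference was not tested. Counts of members called are given below without the share of all probe sets called under each setting. A change in such a count is therefore not read as a result about the members. For butyrate against untreated cells, the median change of the members was -0.321 under median centring, and it turned to 0.011 under quantile normalization and 0.021 under 99th percentile scaling, which was chosen after seeing the data. Members called were 4 and 2 under the last 2 scalings, 2 with a floor at the 5th percentile, 3 among probe sets above the floor on every array, 0 with no filter, and 0 to 2 without 1 array, with medians of -0.212 to -0.131. With time as a replicate block they were 0 (median -0.090), and 0 with the 2 and 24 h arrays alone in pairs. For butyrate against aspirin, members called were 50 (median -0.541) under median centring, 2 under quantile normalization, 6 under 99th percentile scaling, 10 with no filter, 5 with no variance trend, 13 from all 12 arrays, 2 to 16 without 1 array, and 0 without aspirin 2 h and butyrate 12 h (also chosen after seeing the data). With no replicate block there were 14, of which 12 were among the 25. The hours pair arrays by label only: deviations from the group means of same-hour arrays correlated at 0.022 to 0.223 over probe sets, and 1 of 5 butyrate arrays was closest to its own hour. For aspirin against untreated cells 0 were called under every alternative, with medians of 0.014 to 0.24. Median slopes moved to -0.122 (median centring) and 0.034 (without 2 h) with butyrate, with aspirin to 0.025 without 2 h (-0.109 without 24 h; 1 called under median centring), and for the difference to -0.039 without aspirin 2 h, -0.034 without it and butyrate 12 h, and 0.115 without butyrate 2 h.

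The direction of some single members turned. For butyrate against untreated cells, Rpl14 turned under median centring (-0.13), the trimmed mean without the members (-0.008), without the untreated 2 h array (-0.25, and 0.27 without the 24 h one), without butyrate 2, 12 or 16 h (-0.02, -0.00059, -0.002) and without aspirin 2 h and butyrate 12 h (-0.00059), Rpl3l under median centring (-0.0017), and Rpl41 under it (-0.10) and without butyrate 2 h (-0.01, up to 0.14 without 12 h). For aspirin, Rps15 turned without the untreated 24 h array (0.04, and -0.44 without the 2 h one). Between the drugs, median centring turned Rpl14 (-0.24), Rpl19l4 (-0.08), a dim probe set of Rpl21 (-0.08) and Rps4x-ps9 (-0.16), and leaving out 16 h turned Rpl14 (-5.5e-05, up to 0.20 without 6 h). Quantile normalization turned Rpl19l4 (-0.05), Rpl21 (-0.0059), Rpl22 (0.04), Rps6 (0.08 and 0.06) and the called Rpl11 (0.02) and Rpl3 (0.04), and 99th percentile scaling turned Rps6 (0.06 and 0.01).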
